A study of Saccharomyces cerevisiae with 16 samples.

Results

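The genes of de novo pyrimidine synthesis were followed in budding yeast, *Saccharomyces cerevisiae*, with and without the translation initiation factor eIF4B. The genes were chosen by name and number 8, namely *URA1*, *URA2*, *URA4*, *URA5*, *URA6*, *URA7*, *URA8* and *URA10*. Rows for 7 of them are present among 5330 genes at 37 °C and 5190 genes at 15 °C, and *URA6* was not analysed here. The set was put together with the genotype differences of these same data known, in particular those of *URA2*. The values of the 7 genes are therefore a description, and no test was made on them.

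Fragments of mRNA protected by ribosomes (footprints) and mRNA were read from strain FJZ46, which carries wild-type *TIF3*, the gene of eIF4B, and from strain FJZ52, in which *TIF3* is deleted (*tif3*Δ). Both strains grew in synthetic complete medium, were shifted to 37 °C in experiment 1 or to 15 °C in experiment 2, and were given cycloheximide shortly before harvest. Temperature and experiment coincide, so wherever the 2 temperatures are compared below, their effects cannot be told apart. There were 16 libraries, 2 for each combination of temperature, genotype and kind of library. Each gene has 1 deposited log2 normalised value for such a pair of libraries, so no spread between replicates can be given, and "higher" and "lower" describe group values alone.

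Pyrimidine nucleotides are built from glutamine, bicarbonate and aspartate. *URA2* encodes the very large enzyme that carries both the carbamoyl phosphate synthase and the aspartate transcarbamylase activity, and UTP, an end product, inhibits it. The dihydroorotase Ura4 and the dihydroorotate dehydrogenase Ura1 then make orotate, the isozymes Ura5 and Ura10 add ribose phosphate, and the decarboxylase Ura3 yields UMP. The kinase Ura6 makes UDP, and the isozymes Ura7 and Ura8 turn UTP into CTP. eIF4B assists the helicase eIF4A in opening mRNA structure and in loading ribosomes, and the series asks whether long mRNAs with structured leaders rely on it most.

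The spacing of the lowest footprint values gives the value of about 1 footprint, and with it approximate footprint numbers. At 37 °C the listed genes held about 17600000 wild-type and 11900000 *tif3*Δ footprints, and at 15 °C about 5500000 and 1900000. For mRNA the depth is unknown. Intervals below are 95% Clopper-Pearson intervals built on these footprint numbers. They cover counting error only, and reads copied by PCR are not independent molecules. As a check of the labels, *TIF3* itself had about 7858 wild-type and 34 *tif3*Δ footprints at 37 °C, and 3126 and 24 at 15 °C, not adjusted for depth. In the authors' deposited table its footprints were 157-fold lower at 37 °C and 43.8-fold lower at 15 °C. Its mRNA was 272-fold lower at 37 °C but only 18.3-fold lower at 15 °C, so some *TIF3* mRNA signal remains in the 15 °C *tif3*Δ values.

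Coding length separates *URA2* from every other gene of the set. In the RefSeq annotation of assembly R64 it spans 6645 nt (2214 codons), and 22 of 5195 genes with a known length at 37 °C are longer. *URA7* (1740 nt) and *URA8* (1737 nt) come next, then *URA4* (1095 nt), *URA1* (945 nt), *URA10* (684 nt) and *URA5* (681 nt). The median gene has 1266 nt. The CTP synthase genes lie above it and the other short partners below, and *URA2* is at least 3.82 times as long as each of them.

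Because eIF4B acts before the ribosome reaches the start codon, the bases around that codon are shown for the measured genes. They were read from the RefSeq R64 genome with its own annotation, on the coding strand, and the capitals mark the start codon.
*URA2* (chromosome X): aacaatcataatATGgccactattgct
*URA4* (chromosome XII): cctaacaaagcaATGgtacaagaaatc
*URA1* (chromosome XI): tccgtaccaaacATGacagccagttta
*URA5* (chromosome XIII): aagttattcaaaATGcctattatgttg
*URA10* (chromosome XIII): cataatccaataATGtctgcatctact
*URA7* (chromosome II): tatagacagaaaATGaagtacgttgtt
*URA8* (chromosome X): cggctattgaaaATGaaatacgttgtt

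Position -3 (counted back from the A of the start codon), where yeast genes favour A, holds A in all of these genes except *URA4*, which holds G. Among 5191 genes at 37 °C, 61.7% hold A there and 19.6% hold G. Predicted folding of the 60 bases around the start codon (30 before it and 30 from its first base on) was weak for *URA2*, at -0.90 kcal/mol for 37 °C against a median of -5.80 over all genes, and 97.0% of the genes had a more stable window. At 15 °C the *URA2* window stood at -7.03 kcal/mol against a median of -12.7, with 91.4% of the genes more stable. The *URA10* window was next at 37 °C (-1.50 kcal/mol) and the weaker of the pair at 15 °C (-6.30 kcal/mol, with 94.3% of the genes more stable). The other 5 windows lay between -4.70 (*URA5*) and -7.10 kcal/mol (*URA8*) at 37 °C. Leader lengths are not in these tables, so the windows do not describe whole leaders, and relations of folding with the measured values were not tested.

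**Figure D1:**
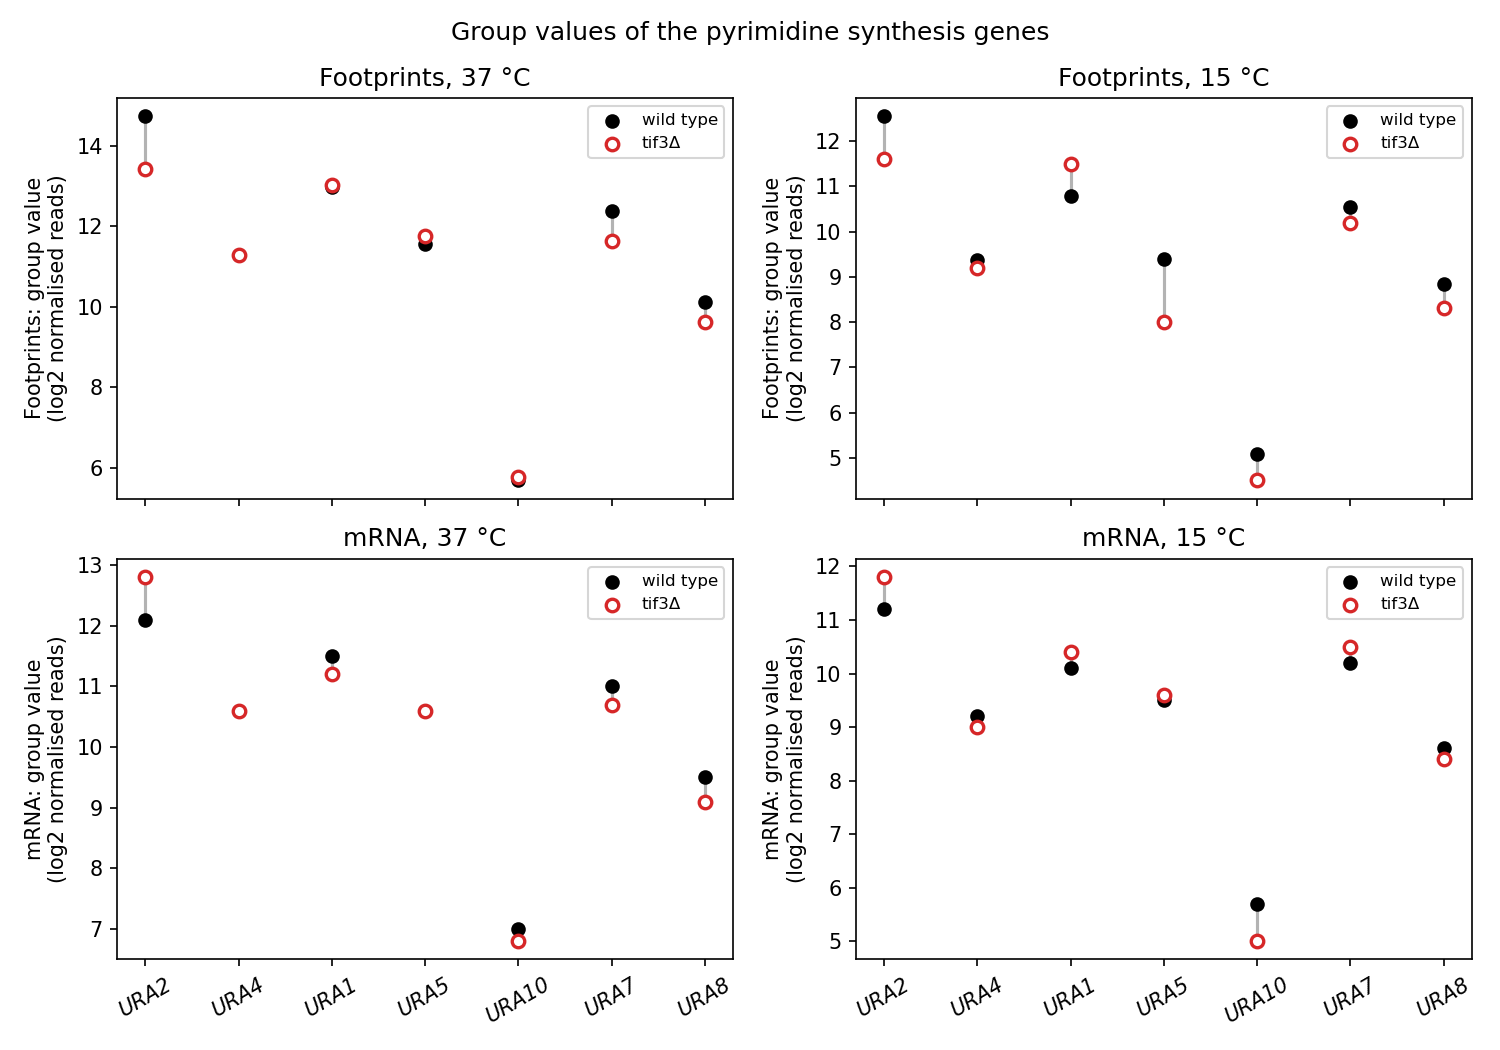
Group values (log2 normalised reads, not per length) of the 7 measured genes for footprints (top) and mRNA (bottom) at 37 °C (left) and 15 °C (right); filled points are wild type, open points *tif3*Δ, each 1 deposited value with no error. *URA2* is lower in footprints and higher in mRNA in *tif3*Δ at both temperatures, and *URA5* is lower in footprints at 15 °C, at 8.0 against 9.4.

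*URA2*, the entry enzyme of the pathway, had fewer footprints and more mRNA without eIF4B at both temperatures. At 37 °C its footprints stood at log2 14.74 in wild type and 13.43 in *tif3*Δ, and its mRNA at 12.1 and 12.8. The authors' deposited table puts footprints 2.48-fold lower, mRNA 1.69-fold higher and translational efficiency (TE, footprints over mRNA) 4.19-fold lower. About 37381 wild-type and 10190 *tif3*Δ footprints underlie this, and the counting interval of the log2 footprint difference ran from -1.34 to -1.28. In the same order, the 15 °C values were 12.55 and 11.6 for footprints and 11.2 and 11.8 for mRNA. Here the authors' deposited table gives footprints 1.87-fold lower (log2 interval -0.98 to -0.82), mRNA 1.51-fold higher and TE 2.83-fold lower. All values are relative to the other genes of a library, so a change common to all genes cannot be seen, and in bulk cultures fewer cells with an mRNA and less mRNA per cell cannot be told apart.

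Among all genes that passed a minimum mean normalised value of 10 in footprints and mRNA, 11 of 5197 had a lower TE difference than *URA2* at 37 °C and 151 of 5012 at 15 °C. Footprints at least 1.5-fold lower together with mRNA at least 1.5-fold higher were found for 6 genes at 37 °C and 23 at 15 °C among the 4999 genes compared at both. *URA2* was the only gene with this pair of differences at both temperatures, its mRNA at 15 °C being just past that fold. This pairing was looked at after the values of *URA2* were known. It rests on the deposited normalised values. By share of the listed mRNA values (0.0864% in wild type, 0.110% in *tif3*Δ) the 15 °C rise of *URA2* does not reach 1.5-fold. TE differences as low as those of *URA2* at both temperatures were also listed for *MMS1*, the chromosomal neighbour of *TIF3*, and for the cyclin gene *PCL5*.

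**Figure D2:**
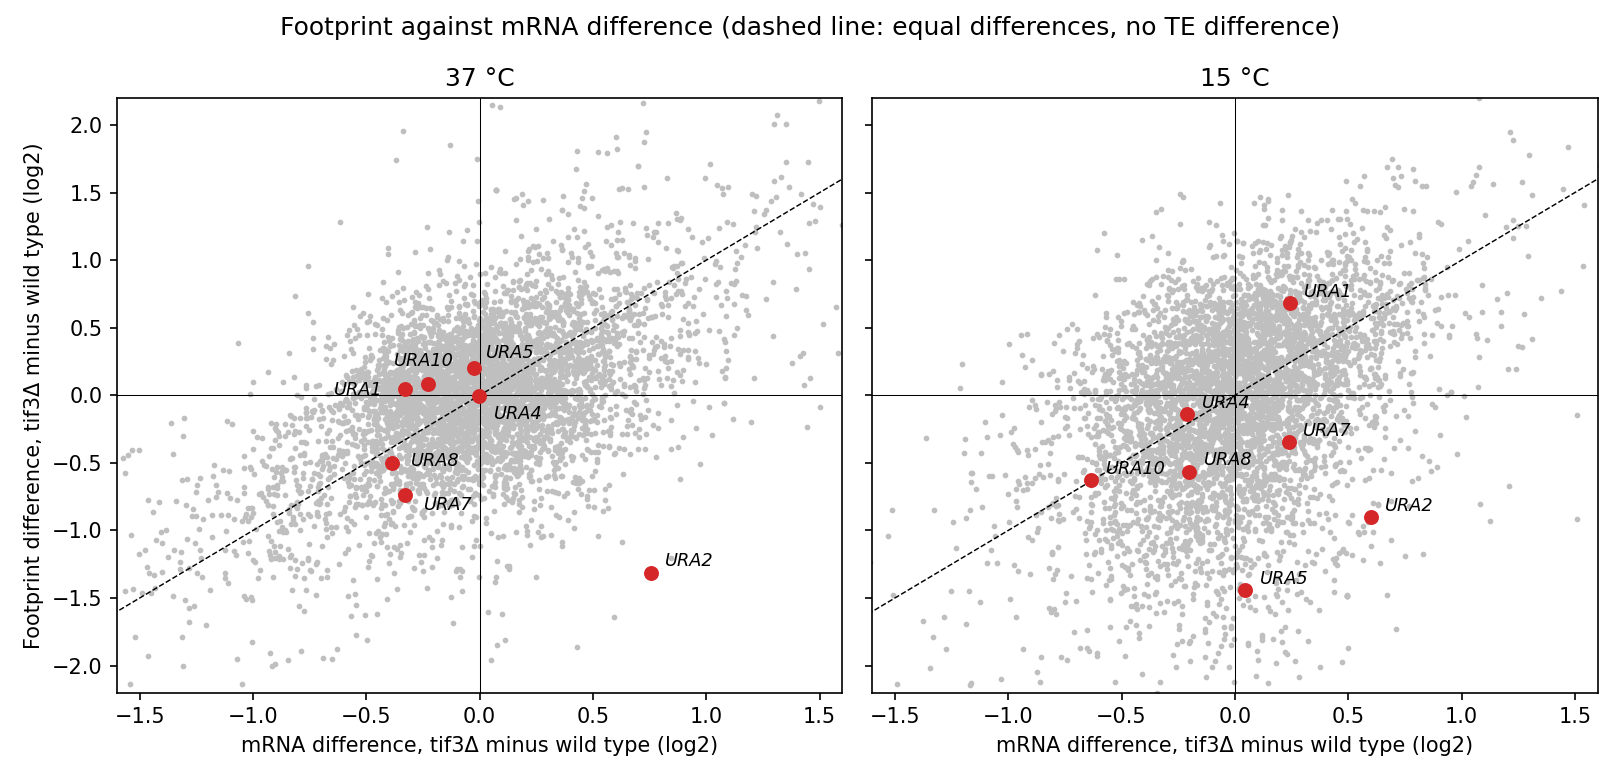
Footprint difference (vertical) against mRNA difference (horizontal), *tif3*Δ minus wild type in log2 units, at 37 °C and 15 °C; red points are the measured pyrimidine synthesis genes, grey points all genes above the minimum, and 106 genes at 37 °C and 56 at 15 °C lie outside the axes. *URA2* sits at 0.75 and -1.31 at 37 °C and at 0.60 and -0.90 at 15 °C, below the dashed line of equal differences.

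In wild type *URA2* was among the most efficiently translated mRNAs. Its log2 TE stood 2.65 above that of the median gene at 37 °C, higher than 99.5% of the genes, and 1.34 above it at 15 °C, higher than 96.9%. In *tif3*Δ it stood 0.64 above the median gene at 37 °C (higher than 71.7%) and -0.20 relative to it at 15 °C (higher than 38.6%). *URA2* took 0.212% of all footprints on listed genes among wild-type libraries and 0.0857% without eIF4B at 37 °C, against 0.153% and 0.0775% at 15 °C. At 37 °C its share of the mRNA values was 0.0726% with and 0.117% without eIF4B, and at 15 °C 0.0864% with and 0.110% without it. Shares depend on the sum over all listed genes. By share, the 15 °C mRNA rise is smaller than the 1.51-fold of the normalised values, so its size depends on the scaling.

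The genes of the next 2 steps stayed within 1.5-fold in TE. *URA4*, the dihydroorotase gene, had footprints of 11.28 in both genotypes and mRNA of 10.6 in both at 37 °C. In the authors' deposited table all its differences there are within 0.01 log2 units of 0. At 15 °C footprints were 9.37 and 9.2 and mRNA 9.2 and 9.0, and the authors' deposited table lists a TE difference of 0.07. *URA1*, the dihydroorotate dehydrogenase gene, had footprints of 12.97 and 13.02 and mRNA of 11.5 and 11.2 at 37 °C, and the authors' deposited table gives a log2 TE difference of 0.37. At 15 °C its footprints were 10.79 in wild type and 11.5 in *tif3*Δ, with mRNA of 10.1 and 10.4. The authors' deposited table then lists 1.61-fold more footprints (log2 interval 0.59 to 0.78) and 1.36-fold higher TE. *URA1* was the only measured gene of the set with more footprints in *tif3*Δ at 15 °C.

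*URA5*, the major orotate phosphoribosyltransferase gene and the shortest one measured, differed between the temperatures. At 37 °C its footprints were 11.57 in wild type and 11.77 in *tif3*Δ, with mRNA of 10.6 in both, and the authors' deposited table gives 1.17-fold higher TE. At 15 °C footprints were 9.4 and 8.0 while mRNA was 9.5 and 9.6. In the authors' deposited table *URA5* footprints were 2.72-fold lower and TE 2.81-fold lower at 15 °C, close to the 2.83-fold of *URA2*. About 949 wild-type and 115 *tif3*Δ footprints lie behind this, with a log2 interval from -1.74 to -1.17. The TE difference of *URA5* was 1.72 log2 units higher at 37 °C than at 15 °C, and 84 of 4999 genes (1.68%) had a larger gap in that direction. The 2 temperatures are also 2 experiments, so the source of this difference cannot be told apart, and without single libraries it could not be tested.

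*URA10*, the minor isozyme, was the least abundant gene of the set. Per kb of coding sequence, wild-type footprints of *URA5* were 59.6 times those of *URA10* at 37 °C and 20.1 times at 15 °C, and wild-type mRNA 12.2 and 14.0 times. At 37 °C *URA10* had footprints of 5.68 and 5.76 and mRNA of 7.0 and 6.8, and the authors' deposited table lists a TE difference of 0.31. At 15 °C footprints were 5.08 and 4.5 and mRNA 5.7 and 5.0, with a TE difference of 0.00 in the authors' deposited table, since both were about 1.55-fold lower. The 15 °C values rest on about 48 and 10 footprints, and the log2 interval of the footprint difference, -1.82 to 0.34, includes 0. *URA5* and *URA10* are paralogs, as are *URA7* and *URA8*. How the authors counted reads that match both copies is not stated in the sources used, so values of the less abundant copy are uncertain.

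The CTP synthase genes *URA7* and *URA8* were lower in TE and footprints at both temperatures, by less than *URA2*. *URA7* had footprints of 12.38 and 11.63 and mRNA of 11 and 10.7 at 37 °C, and the authors' deposited table gives footprints 1.67-fold lower and TE 1.33-fold lower. At 15 °C its footprints were 10.54 and 10.2 and its mRNA 10.2 and 10.5, with a log2 TE difference of -0.59 in the authors' deposited table, just past 1.5-fold. *URA8* had footprints of 10.13 and 9.63 and mRNA of 9.5 and 9.1 at 37 °C, and 8.85 and 8.3 against 8.6 and 8.4 at 15 °C. The authors' deposited table gives its TE as 1.09-fold lower at 37 °C and 1.28-fold lower at 15 °C. The log2 footprint intervals were -0.63 to -0.38 and -0.83 to -0.30, which hold counting error but no spread between replicates. The coding sequences of these isozymes are of nearly equal length. Per kb *URA7* had 4.75 times the wild-type footprints of *URA8* at 37 °C and 3.22 times at 15 °C.

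Counted over the set, TE at 37 °C was at least 1.5-fold lower in *tif3*Δ for 1 of the 7 genes, *URA2*, where 11.1% of all genes were that low. None of the 7 was at least 1.5-fold higher, against 10.3% of all genes. At 15 °C 3 of the 7 had TE at least 1.5-fold lower (*URA2*, *URA5* and, at the limit, *URA7*), against 18.9% of all genes, and none was that much higher, against 13.9%. Footprints were at least 1.5-fold lower for *URA2* and *URA7* at 37 °C, against 13.2% of all genes. At 15 °C they were that much lower for 3 genes, *URA2*, *URA5* and *URA10* (20.7% of all genes), and higher for *URA1* (16% of all genes). mRNA was at least 1.5-fold higher for *URA2* alone at either temperature (8.77% and 6.78% of all genes), and that much lower for *URA10* at 15 °C (5.85%). The median TE difference of the 7 genes was -0.00 at 37 °C and -0.36 at 15 °C, beside 0.04 and -0.00 over all genes. Since the set was chosen on this contrast, nothing is read from these shares.

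*URA2* lay farther from its partners at 37 °C than at 15 °C. There its TE difference of -2.07 compares with -0.41 (*URA7*) to 0.37 (*URA1*) for the other 6 genes, which puts *URA2* at -2.18 log2 units (4.53-fold) from their median of 0.11. In mRNA the 6 lay between -0.39 (*URA8*) and -0.00 (*URA4*), with *URA4* and *URA5* (-0.03) at about 0. The median over all genes was -0.01, and *URA2* stood at 0.75. At 15 °C *URA2* lay -1.32 log2 units from the partners' median of -0.18, and *URA5* at -1.49 reached the -1.50 of *URA2*. In footprints at 15 °C *URA5* was lower than *URA2* (-1.44 against -0.90).

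The ratio of footprint densities within the pathway shifted with these differences. Per kb of coding sequence, *URA2* had 1.81 times the footprints of *URA4* in wild type and 0.731 times in *tif3*Δ at 37 °C, and 1.49 and 0.870 times at 15 °C. *URA1* had 2.06 times the footprint density of *URA2* in wild type and 5.29 times in *tif3*Δ at 37 °C, and 2.08 and 6.56 times at 15 °C. *URA5* had 1.08 times the density of *URA2* in wild type and 3.09 times in *tif3*Δ at 37 °C, but 1.10 and 0.805 times at 15 °C. The order in wild type at 37 °C was *URA1*, *URA5*, *URA2*, *URA7*, *URA4*, *URA8* and *URA10*, and in *tif3*Δ *URA2* came after *URA4* and *URA7* as well. With 1 value per group, neighbours in this order cannot be told apart by their spread.

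**Figure D3:**
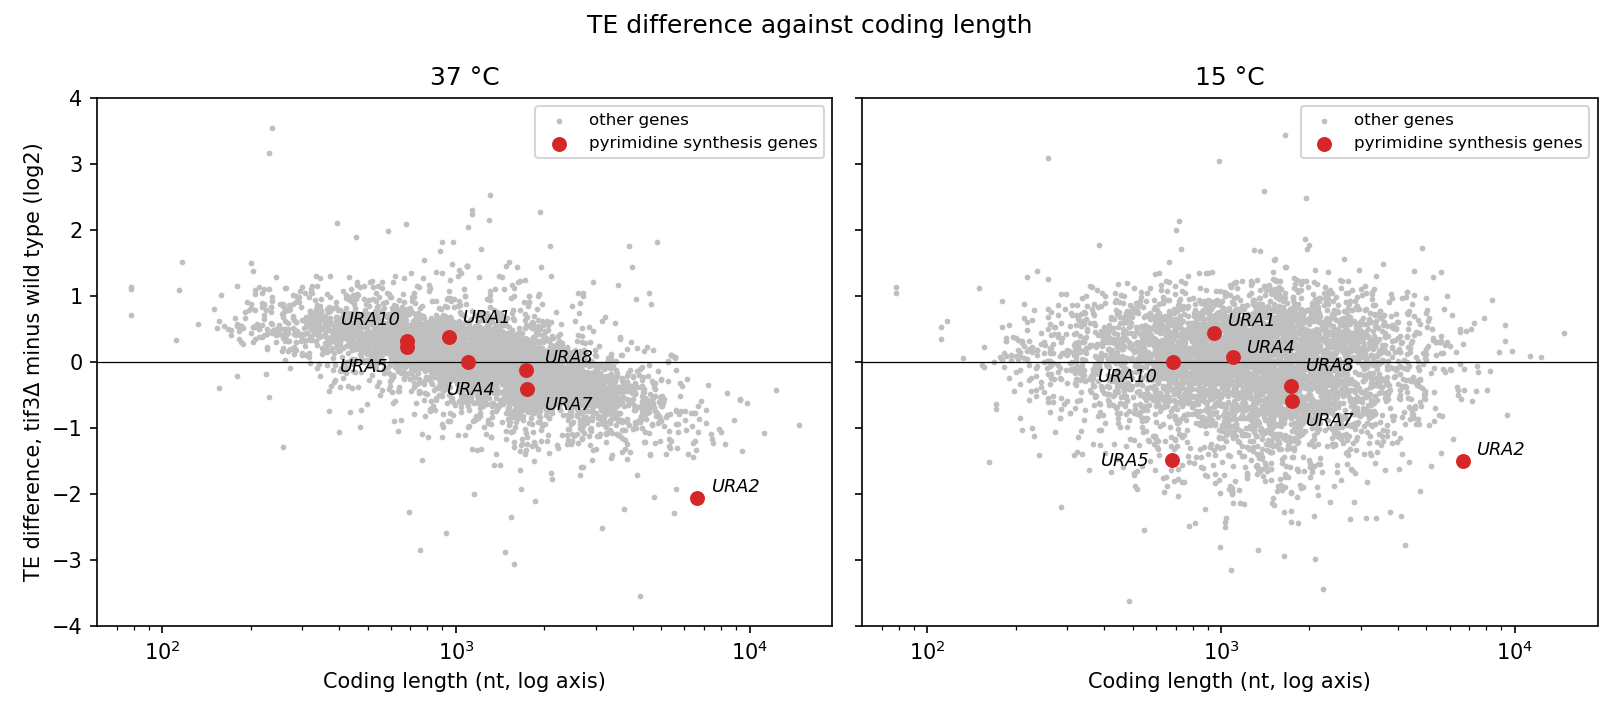
TE difference (*tif3*Δ minus wild type, log2) against coding length (log axis) at 37 °C and 15 °C; red points are the 7 measured pyrimidine synthesis genes, grey points all genes above the minimum. At 37 °C *URA2* lies at -2.07, below 46 of the 47 other genes within 20% of its length, and at 15 °C *URA2* (-1.50) and the short *URA5* (-1.49) lie at the same height.

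Most genes about as long as *URA2* also had lower TE at 37 °C, but not at 15 °C. Of 47 other genes within 20% of its coding length (5358 to 7887 nt), 35 had TE at least 1.5-fold lower in *tif3*Δ at 37 °C, against 11.1% of all genes. None was that much higher, against 10.3% of all genes, and the median TE difference was -0.79. *DUR1,2*, the urea amidolyase gene, was the only one of the 47 lower than *URA2*, at -2.29, and the glucan synthase gene *FKS1* followed *URA2* at -1.92. At 15 °C 6 of 46 such genes were at least 1.5-fold lower (18.9% of all genes) and 6 at least that much higher (13.9% of all genes). Their median was 0.14, and none was as low as *URA2*. *FKS1* (-1.39) and the fatty acid synthase gene *FAS1* (-1.16) came nearest. In mRNA *URA2* was higher than 44 of the 47 at 37 °C and all 46 at 15 °C, where their median differences were 0.42 and -0.16. The *YRF1* copies among these genes have equal or nearly equal values, so they do not count as separate genes in the way the others do.

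The 10 genes nearest in length, 5 on each side, all had lower TE in *tif3*Δ at 37 °C. They ran from -0.60 for the lipid kinase gene *FAB1* to -1.33 for *SEC16* of COPII vesicle formation. Their median was -0.83, beside 0.04 over all genes. The glutamate synthase gene *GLT1* stood at -1.23 and the acetyl-CoA carboxylase gene *ACC1* at -0.87 there. At 15 °C 5 of the 10 were below 0 and 5 above, from -0.56 (*SEC16*) to 0.49 (the checkpoint kinase gene *MEC1*). The median of the 10 was then 0.12, beside -0.00 over all genes. The short partners can be placed in the same way. At 37 °C *URA5* (0.23) lay near the median of 0.31 of 722 genes within 20% of its length. At 15 °C 19 of 690 such genes had a lower TE difference than *URA5*, where their median was 0.05. *URA1* lay above its 1023 neighbours' median of 0.17 at 37 °C and above the -0.00 of 994 at 15 °C. For *URA8* the 37 °C TE difference (-0.12) was near the median of -0.14 of 1180 genes of like length, 625 of which were lower. *URA7* (-0.41) lay below the -0.14 of its 1187 there. At 15 °C *URA7* (-0.59) and *URA8* (-0.36) were both below medians of -0.09.

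The genes whose pattern was most like that of *URA2* were sought over 4 values, the footprint and mRNA differences at both temperatures, among the 4464 genes that averaged at least 32 normalised units in each comparison. By Euclidean distance they were *ERC1* (0.66 log2 units), *LEU9* (0.71), YML081W (0.79), *PEP1* (0.79) and *PIB2* (0.83). *LEU9* encodes an α-isopropylmalate synthase of leucine synthesis and *PEP1* a vacuolar sorting receptor. Their coding lengths run from 1746 nt (*ERC1*) to 4740 nt (*PEP1*), all shorter than *URA2*. *ERC1* had TE differences of -1.25 and -1.44 at 37 °C and 15 °C, and *PEP1* of -2.04 and -0.94. Of these 5, *PEP1* came closest to *URA2* at 37 °C in mRNA (0.84) but had a negative mRNA difference at 15 °C (-0.15).

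Other genes of pyrimidine use were compared from lists that were named without regard to how they moved, though earlier results of these data were known. In the salvage and uptake list, 2 of 8 genes had TE at least 1.5-fold lower at 37 °C and none that much higher (median -0.37), where 11.1% of all genes were lower and 10.3% higher. At 15 °C 3 were lower and 1 higher (median -0.48), against 18.9% and 13.9% of all genes. For *FUI1*, the uridine permease, the authors' deposited table gives TE 1.76-fold lower at 37 °C and 1.73-fold lower at 15 °C. *URH1*, the uridine nucleosidase, had log2 TE differences of -0.59 and -0.97 in the authors' deposited table, the latter on about 36 *tif3*Δ footprints. Its 37 °C difference is just past 1.5-fold. *FUR4*, the uracil permease, had 1.89-fold more mRNA at 37 °C and 1.55-fold more at 15 °C in the authors' deposited table. *FCY2*, the purine-cytosine permease, had TE 1.29-fold lower at 37 °C and 1.66-fold higher at 15 °C in the authors' deposited table. *FUR1*, the uracil phosphoribosyltransferase, and the uridine kinase *URK1* stayed within 1.5-fold in TE, footprints and mRNA.

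*URA3*, the OMP decarboxylase gene between *URA5* or *URA10* and *URA6* in the pathway, could be read at 15 °C and was not analysed at 37 °C. Its mRNA stood at 13.0 in wild type and 11.8 in *tif3*Δ, and its footprints at 13.12 and 12. In the authors' deposited table mRNA was 2.35-fold lower, footprints 2.19-fold lower and TE 1.07-fold higher. *URA3* is widely used as a selectable marker, and the labels do not say which marker alleles the strains carry. *PPR1*, the transcriptional activator of *URA1*, *URA3* and *URA4*, had mRNA of 8.9 and 9.1 at 37 °C and 6.9 and 6.8 at 15 °C. *SDT1*, a pyrimidine nucleotidase, was within 1.5-fold in TE at both temperatures and had footprints 1.71-fold lower at 15 °C in the authors' deposited table.

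**Figure D4:**
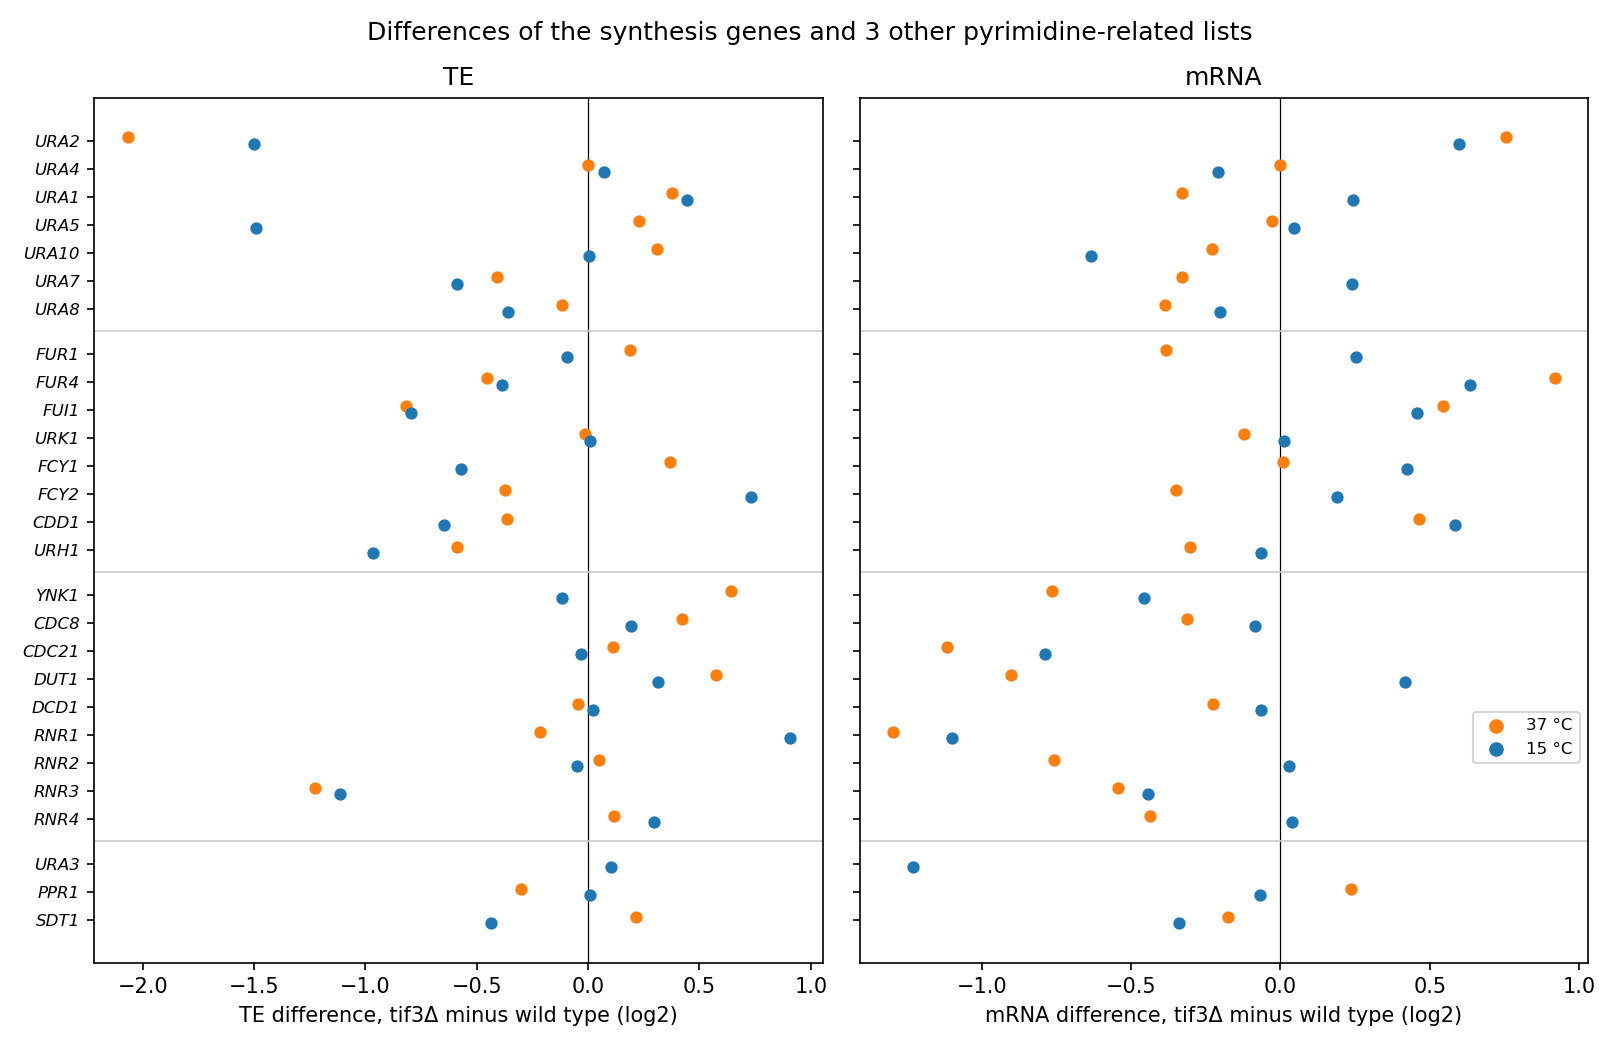
TE difference (left) and mRNA difference (right), *tif3*Δ minus wild type in log2 units, for the measured synthesis genes and, below the grey lines, the lists of salvage and uptake, nucleotide conversion, and other steps and control; orange points are 37 °C and blue points 15 °C, each 1 deposited value. *URA2* has the lowest TE difference shown at both temperatures (-2.07 and -1.50), with *URA5* next to it at 15 °C.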

How the data were processed

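Footprint and mRNA libraries of wild type and *tif3*Δ at 37 °C and 15 °C were grouped from the sample labels, 8 groups of 2. The deposited tables hold, per the file headers, log2 normalised values per gene and group and the authors' log2 differences (footprints, mRNA, TE). The submitters' processing notes name CASAVA 1.8, Bowtie2 2.0.6, TopHat2 2.0.7, DESeq and sacCer2, without roles. No source used here states how the 2 libraries of a group were combined.

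The deposited differences equal the group values' differences within 0.0996 log2 units, the size of rounding (mRNA group values carry 1 decimal), and TE is the footprint minus the mRNA difference, so mRNA enters both. Genes that averaged at least 10 normalised units in footprints and in mRNA were compared, *TIF3* left out. Folds of at least 1.5 were counted. The value of 1 footprint was the median of the lowest cluster of values: 0.732 and 1.08 normalised units in wild type and *tif3*Δ at 37 °C, 0.712 and 2.15 at 15 °C. Whole multiples (tolerance 0.15) made up 98.7%, 100%, 82.9% and 83.7% of the values below about 6 footprints. The *tif3*Δ numbers use the wild-type value plus the deposited difference. The step estimate was tried on counts simulated with a single common step. Real group values may combine libraries of unequal scale, so this trial does not check the footprint numbers.

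The planned count model needs single libraries and was replaced by description. Members and lists were chosen with earlier results of these data known. Named genes are the members, 3 pathway lists, the 5 genes most like *URA2*, the 5 nearest in length on each side and *TIF3*; 1 further planned list is not reported here. *MMS1*, *PCL5*, *DUR1,2*, *FKS1* and *FAS1* were named after their values were seen. Coding lengths and start codons come from RefSeq assembly R64, matched by systematic name for 5195 of 5197 genes at 37 °C; no coordinates were carried between builds. Folding used ViennaRNA 2.7.2, other steps Python 3.11.15 with pandas 2.3.3 and scipy 1.17.1.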

Additional observations from a re-analysis of the deposited data

How the results depend on the processing

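Of 52 alternative values for 14 results on the set and on *URA2*, 50 kept their direction and stayed within the tolerance (counts and ranks within 1.5 times, *URA2* differences within counting error or rounding, gaps within the spread of the partners) and none changed sign. The alternatives were a minimum of 32 or none, a fold of 2, a pseudocount of 1, centring on the median gene, values recomputed from the rounded group values, other length windows and partners without *URA8* and *URA10*. Several of these could hardly change a value. All 7 genes pass the minimum of 10, so leaving it out repeats the main result, and *URA2* lies far above a pseudocount of 1. The 50 are therefore not a measure of robustness. The ranks of *URA2* in TE among genes of like length moved: from 2 of 48 to 1 of 21 at 37 °C with a window of 10%, and from 1 of 47 to 7 of 179 at 15 °C with a window of 40%, windows that hold other genes. With centring or a fold of 2, 2 genes in place of 3 had lower TE at 15 °C, since *URA7* lies at the limit. No paired analysis was possible because the tables hold no single libraries, and leaving out replicates was not run for the same reason. Unknown mRNA depth and 1 value per group limit every TE value, and the 15 °C *tif3*Δ footprints, the shallowest group, limit *URA10* most.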

Other observations

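The nucleotide conversion list holds enzymes that convert nucleotides into one another or into DNA precursors. At 37 °C 5 of its 9 genes had mRNA at least 1.5-fold lower in *tif3*Δ, against 8.87% of all genes. The log2 mRNA differences of the 9 ran from -1.30 to -0.23. Their median was -0.76, beside -0.01 over all genes. *RNR1*, the large subunit of ribonucleotide reductase, was 2.46-fold lower in mRNA, and *CDC21*, the thymidylate synthase, 2.17-fold lower in the authors' deposited table. The dUTPase *DUT1* was 1.87-fold lower, the nucleoside diphosphate kinase *YNK1* 1.70-fold and the small subunit *RNR2* 1.69-fold in the authors' deposited table. Their median TE difference was 0.11, with *YNK1* 1.56-fold higher and the inducible large subunit *RNR3* 2.34-fold lower in the authors' deposited table.

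At 15 °C 2 of the 9 genes had mRNA at least 1.5-fold lower (5.85% of all genes), *RNR1* (2.15-fold) and *CDC21* (1.73-fold) in the authors' deposited table, and the median was -0.09. *RNR1* then had 1.87-fold higher TE in the authors' deposited table. *RNR3* was 2.16-fold lower in TE there in the authors' deposited table, where about 54 footprints in wild type met 6 in *tif3*Δ. The dCMP deaminase *DCD1* and the thymidylate kinase *CDC8* stayed within 1.5-fold in TE, footprints and mRNA at both temperatures.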
